A study of Homo sapiens with 4 samples.

Results

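Interferon-stimulated genes and genes of the APOL family were followed in 4 RNA-seq libraries from human ovarian cancer cells. The 40 genes are the rows of the deposited table whose name is in a list of 41 names, of 38558 rows in all. The list holds RIGI also under its older name, DDX58, so that all names were found. It was drawn up by function: RNA and DNA sensors, transcription factors of interferon signalling, effector proteins that interferon induces, and 4 apolipoprotein L genes.

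The libraries came from 2 established lines, ES2 and SKOV3, each left without drug or treated with YY-15 for 48 h. The labels give YY-15 only by this code name, and the dose of 4 µM stands only in the column headings of the deposited table. Every combination of line and treatment was sequenced as 1 library, and the sources used here do not say how many cultures it drew on. Each library is named by its line and by control or YY-15. All differences below therefore compare pairs of libraries, with no replicate check and no p-value.

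Interferon response genes are switched on when interferons bind their receptors and JAK kinases phosphorylate STAT proteins. The complex ISGF3, of which STAT2 and IRF9 are subunits, binds the interferon-stimulated response element in promoters, whereas interferon gamma acts through gamma-activated sites. Tumour cells can hold a basal level of this programme without added interferon, and some of its genes answer to IRF1 or NF-kB as well. APOL1, the trypanosome lytic factor of human serum, and its relatives APOL2, APOL3 and APOL6 are inducible by inflammatory cytokines too.

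Total estimated counts ranged from 62522202 (SKOV3 YY-15) to 67431058 (SKOV3 control). Against their labels, the lines could be told apart by ERBB2, the amplified receptor gene of SKOV3, at 152 FPKM in SKOV3 control and 0.0317 FPKM in ES2 control (FPKM, a fragment count scaled by transcript length and library size). The labels call both lines epithelial. Of 5 epithelial markers, EPCAM, CDH1 and KRT19 were listed at 0 in ES2 control, where KRT8 stood at 12.7 and KRT18 at 112 FPKM. Of 3 endothelial markers, the cadherin gene CDH5 was at 19.5 FPKM in ES2 control, but PECAM1 was at 0.0417 and VWF at 0.0278 FPKM. Of 5 leukocyte markers sought, 4 were found, with a highest value in any library of 0.154 FPKM (LYZ), so leukocyte RNA was at or near 0.

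RefSeq promoter windows (GRCh38.p14, 250 bases before to 50 after a start site) were found for 29 of the 40 genes. The other 11 were OAS2, OASL, MX2, IFIT2, IFITM2, USP18, IRF7, APOL1, APOL2, APOL3 and APOL6. The core of the interferon-stimulated response element, searched on both strands as GAAA, any 2 bases and GAAA again, was present in a window of 19 of the 29 (65.5%), against 4.38% of 27305 genes with a window. TTCNNNGAA, the gamma-activated site, which reads alike on both strands, was present in 9 of the 29 (31.0%) and in 9.38% of all genes. An NF-kB site, searched as GGG, any 2 bases and TTTCC, was present on either strand in 3 of the 29 (10.3%) and in 2.33% of all genes. Matches of different motifs can overlap, and a match is a run of letters, not a measured binding site. Stretches with the response element core are shown to let the repeats be compared, 5′ to 3′ on the strand of the gene, with capitals marking the core:
ISG15, chr1:1013372-1013411, plus strand: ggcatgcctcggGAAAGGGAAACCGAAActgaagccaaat
IFIT1, chr10:89392495-89392541, plus strand: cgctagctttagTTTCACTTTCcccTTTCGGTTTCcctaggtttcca
IFIT3, chr10:89327829-89327862, plus strand: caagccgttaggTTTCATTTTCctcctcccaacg
IFIT5, chr10:89414511-89414544, plus strand: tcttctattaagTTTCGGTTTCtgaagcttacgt
OAS3, chr12:112938319-112938352, plus strand: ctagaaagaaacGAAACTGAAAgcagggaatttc
HERC5, chr4:88456982-88457021, plus strand: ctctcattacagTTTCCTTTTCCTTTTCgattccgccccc
PARP14, chr3:122680798-122680831, plus strand: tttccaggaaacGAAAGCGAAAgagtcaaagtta
BST2, chr19:17405733-17405772, minus strand: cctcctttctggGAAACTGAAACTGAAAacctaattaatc
DTX3L, chr3:122564320-122564353, plus strand: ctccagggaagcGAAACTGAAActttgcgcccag
PARP9, chr3:122564320-122564353, minus strand: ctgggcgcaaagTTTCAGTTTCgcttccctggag
Each stretch covers only the first core, or first close group of cores, in its window. The whole windows held 3 cores in IFIT5 and HERC5 and 2 in OAS3 and IFIT3, and another IFIT3 window held 2. In ISG15, HERC5 and BST2 a pair of cores overlaps, giving a run of 3 GAAA or TTTC repeats spaced by 2 bases. The stretch of DTX3L and that of PARP9 are the same bases read from opposite strands, since these genes start back to back. Their shared core lies at chromosome 3, 122564332 to 122564341, and it begins 6 bases before the DTX3L start, which it spans, and 41 bases before a PARP9 start.

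Whole windows are given for the genes whose SKOV3 ratio was among the highest or lowest at an FPKM of 5 or more and that had a window (IRF1, IFI16 and HERC5), and for XAF1, chosen after its value was seen. Capitals mark any of the searched motifs:
IRF1, chr5:132490724-132491023, minus strand: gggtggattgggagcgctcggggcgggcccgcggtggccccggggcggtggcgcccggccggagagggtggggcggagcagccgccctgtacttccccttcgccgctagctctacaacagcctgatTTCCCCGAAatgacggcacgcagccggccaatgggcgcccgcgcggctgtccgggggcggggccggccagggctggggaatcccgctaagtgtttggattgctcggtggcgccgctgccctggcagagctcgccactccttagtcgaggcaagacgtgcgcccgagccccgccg
IFI16, chr1:159008741-159009040, plus strand: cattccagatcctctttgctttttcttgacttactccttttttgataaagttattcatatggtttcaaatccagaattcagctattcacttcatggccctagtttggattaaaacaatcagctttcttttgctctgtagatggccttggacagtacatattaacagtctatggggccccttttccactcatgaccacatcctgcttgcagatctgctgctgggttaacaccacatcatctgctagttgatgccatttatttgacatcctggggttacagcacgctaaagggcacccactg
XAF1, chr17:6755197-6755496, plus strand: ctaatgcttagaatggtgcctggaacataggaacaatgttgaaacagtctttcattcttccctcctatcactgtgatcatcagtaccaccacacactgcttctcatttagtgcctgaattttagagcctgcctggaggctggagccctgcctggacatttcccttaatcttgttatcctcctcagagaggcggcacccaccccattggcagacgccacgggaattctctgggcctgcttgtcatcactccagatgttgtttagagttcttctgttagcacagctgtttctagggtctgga
HERC5, chr4:88456869-88457168, plus strand: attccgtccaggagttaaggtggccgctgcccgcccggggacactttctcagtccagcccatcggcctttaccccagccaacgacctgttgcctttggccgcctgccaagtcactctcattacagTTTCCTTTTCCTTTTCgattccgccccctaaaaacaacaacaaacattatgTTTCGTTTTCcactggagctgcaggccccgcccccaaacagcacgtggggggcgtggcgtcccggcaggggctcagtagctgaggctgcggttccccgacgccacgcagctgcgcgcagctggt
IRF1 held a gamma-activated site, beginning 124 bases before its start, and no response element core. XAF1 and IFI16 each had 2 windows, of which 1 is shown, and neither gene's windows held any of the searched motifs. HERC5 held 3 cores and neither of the other motifs. An absent match says only that these letters are not in this window.

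Without drug, the lines differed in which of these genes were abundant. The 40 genes made up 0.147% of all counts in SKOV3 control and 0.0863% in ES2 control, but 0.0918% and 0.0855% without APOL1 and APOL2. Of the 40 genes, 26 reached 1 FPKM in SKOV3 control and 21 in ES2 control, and 19 did so in each of the 4 libraries. At or above 10 FPKM were 7 genes in SKOV3 control, namely APOL1 (104), IFITM3 (53.7), APOL2 (48.6), BST2 (46.2), IFITM2 (33.1), HERC5 (11.2) and ISG15 (10.1), against 4 in ES2 control, namely IFI16 (60.7), IFITM2 (25.4), IFI44 (21.1) and IFITM3 (10.2). Across libraries 9 genes stayed under 1 FPKM: IRF9, OAS1, OAS2, OASL, MX1, MX2, USP18, IFI27 and IFI44L. Several of these, MX1 and OAS1 among them, are classical readouts of an interferon response, and here MX1 reached at most 0.332 FPKM and OAS1 at most 0.154 FPKM, both in SKOV3. Each value is a mean over all cells, so that more RNA per cell and more cells with the gene on cannot be told apart.

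**Figure D1:**
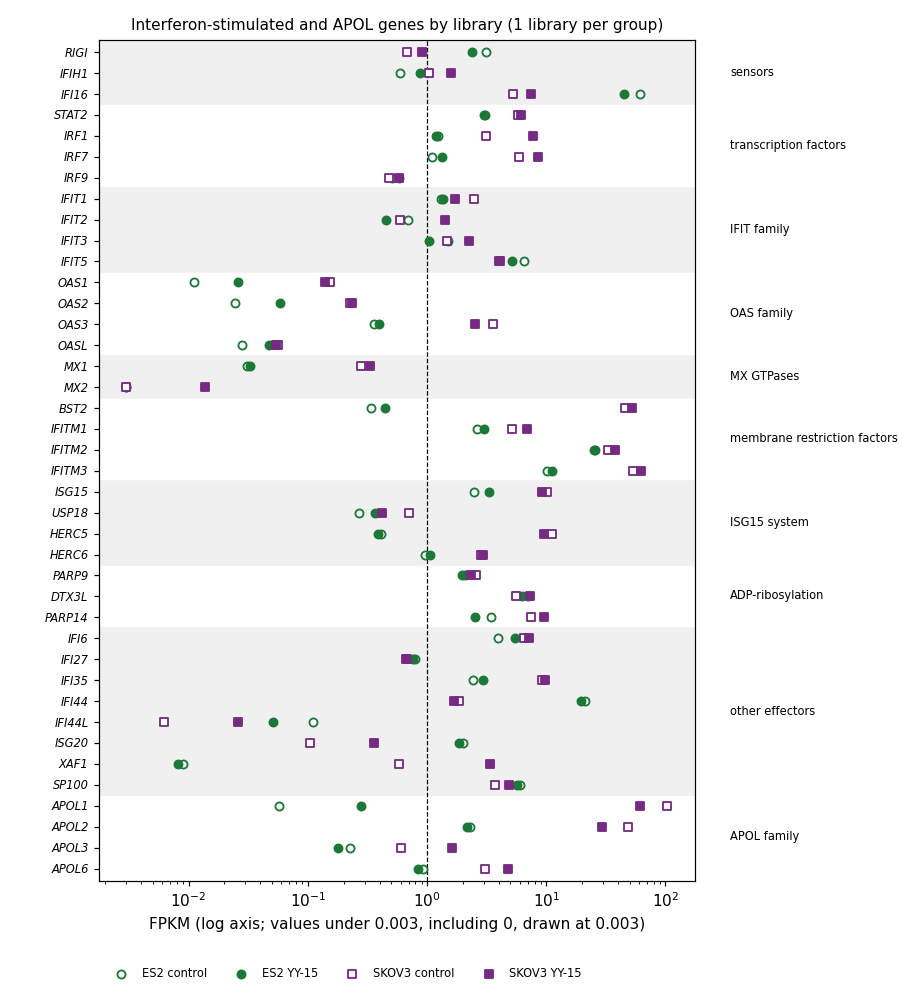
FPKM of each of the 40 genes (log axis) in ES2 control (open circles), ES2 YY-15 (filled circles), SKOV3 control (open squares) and SKOV3 YY-15 (filled squares), ordered by role, with a dashed line at 1 FPKM. APOL1, APOL2, BST2 and HERC5 lie far to the right in SKOV3, IFI16 and IFI44 in ES2, and treated and untreated symbols of the same line lie close together for most genes.

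The untreated lines were compared on log2((SKOV3 FPKM + 1)/(ES2 FPKM + 1)), over genes that reached 1 FPKM in either control. Of 28 measured genes, 5 were at least 4-fold higher in SKOV3 (BST2, IFITM3, HERC5, APOL1 and APOL2), where 4.81% of all 14024 measured genes were, and 2 at least 4-fold lower (IFI16 and IFI44), where 3.25% were. Above 0 were 20 of the 28 (71.4%), against 53.2% of all genes. The median of the 28 was 0.75 against 0.07 for all measured genes. IFIH1, OAS3, BST2, HERC5, HERC6, APOL1 and APOL6 passed the filter only through SKOV3 control, so they had to be higher there. RIGI and ISG20 passed it only through ES2 control, so they had to be lower in SKOV3. Without any filter the median of all 40 was 0.38. Scaling each library to a common sum moved the median of all genes by 0.14, so differences of that size between the lines depend on the scale.

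APOL1 (ENSG00000100342, chromosome 22, 36253071 to 36267530 in GRCh38) had the widest gap. It had 25608 estimated counts in SKOV3 control and 14 in ES2 control, a log2 ratio of 6.63 [10.01 to 11.63]. Here and below, brackets hold the exact 95% interval of the log2 ratio of library shares from estimated counts, without the added 1 FPKM, covering counting error only. The neighbouring APOL2 (ENSG00000128335, 36226209 to 36239954) stood at 48.6 FPKM in SKOV3 control and 2.31 in ES2 control, a ratio of 3.90 [4.26 to 4.52]. BST2, or tetherin, which holds budding virions at the cell surface, was at 46.2 against 0.341 FPKM (5.14 [6.50 to 7.67]). HERC5, the ligase that attaches ISG15 to proteins, was at 11.2 against 0.410 FPKM (3.12 [4.52 to 5.03]). Its genomic neighbour HERC6 differed less, at 2.85 against 0.955 FPKM. XAF1, a partner of the inhibitor of apoptosis XIAP, was under 1 FPKM in both controls but had 278 estimated counts in SKOV3 and 5 in ES2.

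ES2 was the higher line for a smaller set. IFI16, a nuclear DNA sensor (ENSG00000163565, chromosome 1, 158999968 to 159055155), was at 60.7 FPKM in ES2 control and 5.27 in SKOV3 control, a ratio of -3.30 [-3.59 to -3.46]. IFI44, a cytoplasmic protein induced by type I interferon, was at 21.1 against 1.85 FPKM (-2.96 [-3.68 to -3.32]). At the 2-fold size the RNA sensor gene RIGI (3.12 against 0.685 FPKM) and the exonuclease gene ISG20 (1.99 against 0.105 FPKM) were also higher in ES2. At that size 10 genes were higher in SKOV3 and 4 in ES2, against 16.2% and 12.5% of all measured genes. The sensor genes differed in direction between the lines. RIGI and IFI16 were lower in SKOV3, and IFIH1, which encodes the long-RNA sensor MDA5, was higher, at 1.04 FPKM in SKOV3 control and 0.598 in ES2 control (0.35 [0.54 to 1.04]).

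In SKOV3, few of these genes differed between the YY-15 and control libraries by a large factor, and not in a common direction. IRF1 and XAF1 were more than 2-fold higher in the treated library, IFIT2 and APOL3 more than 1.5-fold higher, and APOL1 and APOL2 more than 1.5-fold lower. Here a ratio is the log2 of YY-15 over control after adding 1 FPKM to each, over genes that reached 1 FPKM in either library. Among 29 measured genes, 2 passed the 2-fold size upward (6.9%) and 0 downward, where 1.66% and 1.31% of all 13294 measured genes did. At the 1.5-fold size 4 were higher and 2 lower, against 6.89% and 5.69% of all genes. Above 0 were 20 of 29, against 52.7% of all genes, and the median was 0.19 against 0.02. XAF1, IFIT2 and APOL3 passed the filter only through the YY-15 library, so they had to be higher there. Without any filter the median of all 40 was 0.09. Epithelial and mesenchymal markers differed in the same pair of libraries: KRT8 was at 247 and 116 FPKM, KRT19 at 20.5 and 12.5, FN1 at 170 and 342 and ZEB1 at 5.38 and 8.67, while KRT18, VIM and CDH2 had ratios between -0.09 and 0.10. EPCAM was at 0.752 and 1.15 FPKM and CDH1 at 0.207 and 0.547. The part of these markers in the ratios below was not tested.

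IRF1, a transcription factor that activates interferon and antigen presentation genes (ENSG00000125347, chromosome 5, 132440440 to 132496467), stood at 3.15 FPKM in untreated and 7.77 in treated SKOV3 cells, and at 1.24 and 1.2 FPKM in ES2. Its SKOV3 ratio was 1.08 [1.24 to 1.37]. The deposited row of IRF1 spans 56 kb where GENCODE 29 gives the gene 9.2 kb, so its FPKM rests on a longer model. IRF7, which drives interferon alpha genes, stood at 5.87 and 8.54 FPKM in SKOV3 and at 1.11 and 1.34 in ES2 (SKOV3 ratio 0.48 [0.43 to 0.66]). STAT2, an ISGF3 subunit, differed little, at 5.75 and 6.09 FPKM in SKOV3 and 3.02 and 3.04 in ES2. IRF9, the DNA-binding subunit of ISGF3, was between 0.482 and 0.584 FPKM in every library, and its row overlaps ENSG00000259529 on the same strand, so its reads are uncertain.

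XAF1 (ENSG00000132530, chromosome 17, 6755447 to 6775647) had the highest ratio, 1.47 [2.35 to 2.72]. It stood at 0.581 FPKM without and 3.38 FPKM with YY-15, a 5.82-fold difference without the added 1 FPKM, from 278 and 1490 estimated counts. In ES2 it had 5 counts in the control and 4 with YY-15. The other effectors differed less in SKOV3: SP100, a nuclear body protein, was at 3.73 and 4.91 FPKM (0.32 [0.34 to 0.46]), the membrane protein gene IFI6 at 6.47 and 7.14, IFI35 at 9.17 and 9.85, and IFI44 at 1.85 and 1.67. ISG20 was under 1 FPKM in both SKOV3 libraries but had 55 and 175 estimated counts. IFI27 was at 0.685 and 0.662 FPKM and IFI44L at or under 0.0258 FPKM.

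The sensors were slightly higher in SKOV3 YY-15. IFI16 was at 5.27 FPKM in the control and 7.49 with YY-15 (0.44 [0.43 to 0.60]), and IFIH1 at 1.04 and 1.60 (0.35 [0.45 to 0.83]). RIGI stayed under 1 FPKM in both, at 0.685 and 0.901.

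The IFIT genes encode proteins that bind foreign or unusually capped RNA, and they lie in a row on chromosome 10. They split in SKOV3. IFIT2 (ENSG00000119922, 89283694 to 89309271) was at 0.590 FPKM in the control and 1.42 with YY-15, a ratio of 0.61 [1.03 to 1.54]. IFIT3 (89327307 to 89342166) was at 1.48 and 2.25 FPKM (0.39 [0.45 to 0.78]). IFIT1 (89392546 to 89406487) was lower with YY-15, at 2.46 and 1.71 FPKM (-0.35 [-0.68 to -0.36]), and IFIT5 (89414568 to 89421605) was level at 4.10 and 4.05 FPKM. The intervals of IFIT2 and IFIT3 lie above 0 and that of IFIT1 below. IFIT1 and IFIT3 both held response element cores in their windows. LIPA, on the opposite strand, overlaps IFIT1, IFIT2 and IFIT3 and was at 7.17 and 7.57 FPKM in SKOV3. The labels' protocol marks strand, but the sources used here do not state the counting mode, so reads of LIPA in these genes cannot be told apart.

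The OAS genes encode synthetases of the second messenger that activates RNase L, except OASL, which lacks that activity. OAS3 was the measured member, at 3.56 FPKM without and 2.54 FPKM with YY-15 (-0.36 [-0.55 to -0.41]). OAS1, OAS2 and OASL lay between 0.0542 and 0.235 FPKM in the SKOV3 libraries. The MX GTPases, which trap viral nucleocapsids, were near 0 as well. MX1 was at 0.280 and 0.332 FPKM, and MX2 had 0 estimated counts in SKOV3 control, which allows up to 3, and 14 with YY-15.

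All 4 membrane restriction factors were higher in SKOV3 YY-15, by small amounts, where 52.7% of all measured genes were above 0. BST2 was at 46.2 and 52.3 FPKM (0.17 [0.12 to 0.25]), IFITM1 at 5.17 and 6.91 (0.36 [0.27 to 0.58]), IFITM2 at 33.1 and 37.9 (0.19 [0.14 to 0.27]) and IFITM3 at 53.7 and 62.2 (0.21 [0.18 to 0.26]). The deposited row of IFITM1 spans 5.2 kb where GENCODE 29 gives the gene 1.8 kb. It overlaps ENSG00000254910 on the opposite strand, at 1.75 and 2.28 FPKM in SKOV3, so reads of that gene cannot be told apart. IFITM proteins block the fusion of enveloped viruses with cell membranes. The coding sequences of IFITM2 and IFITM3 are identical at 94.0% of aligned bases, and those of IFITM1 and IFITM3 at 87.0%, so reads could be split between them and the single values are uncertain.

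In the ISG15 system 1 of 3 measured genes was above 0 in SKOV3, against 52.7% of all measured genes. ISG15, the ubiquitin-like modifier, was at 10.1 FPKM in SKOV3 control and 9.24 with YY-15 (-0.12 [-0.29 to 0.04]), an interval that includes 0. HERC5 (ENSG00000138646, chromosome 4, 88457119 to 88506163) was at 11.2 and 9.51 FPKM (-0.22 [-0.31 to -0.17]). USP18, which removes ISG15 and restrains the interferon receptor, was under 1 FPKM, with 222 and 125 estimated counts. HERC6 was level at 2.85 and 2.96 FPKM.

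PARP9 and DTX3L form a complex that modifies ubiquitin and histones, and PARP14 is a mono-ADP-ribosyltransferase of the same region of chromosome 3. PARP9 and DTX3L start back to back over the response element core shown above, and another PARP9 window held no core. These 2 genes differed in sign in SKOV3. DTX3L was at 5.61 and 7.30 FPKM (0.33 [0.31 to 0.47]) and PARP9 at 2.58 and 2.33 (-0.10 [-0.24 to -0.03]). Their rows overlap at the starts on opposite strands, so reads from that stretch cannot be told apart. PARP14 was at 7.42 and 9.52 FPKM (0.32 [0.31 to 0.42]).

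The APOL genes parted most. APOL1 was at 104 FPKM in SKOV3 control and 60.7 with YY-15 (-0.76 [-0.80 to -0.74]), and APOL2 at 48.6 and 29.4 (-0.70 [-0.76 to -0.67]). APOL3 was at 0.605 and 1.61 FPKM (0.70 [1.19 to 1.61]), and APOL6, the most distant of the 4 on chromosome 22, at 3.07 and 4.77 (0.50 [0.56 to 0.72]). The abundant pair was therefore lower and the scarce pair higher, and the 4 intervals stay clear of 0. APOL1 and APOL2 start 13.1 kb apart in opposite orientations, with a coding identity of 78.8%, the highest among APOL pairs. Their FPKM kept a ratio of 2.14 in the control and 2.06 with YY-15. Together they held 37.7% of the estimated counts of all 40 genes without drug and 22.6% with YY-15. The 40 genes made up 0.147% and 0.146% of all counts in these libraries, and without APOL1 and APOL2 the others made up 0.0918% and 0.113%.

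**Figure D2:**
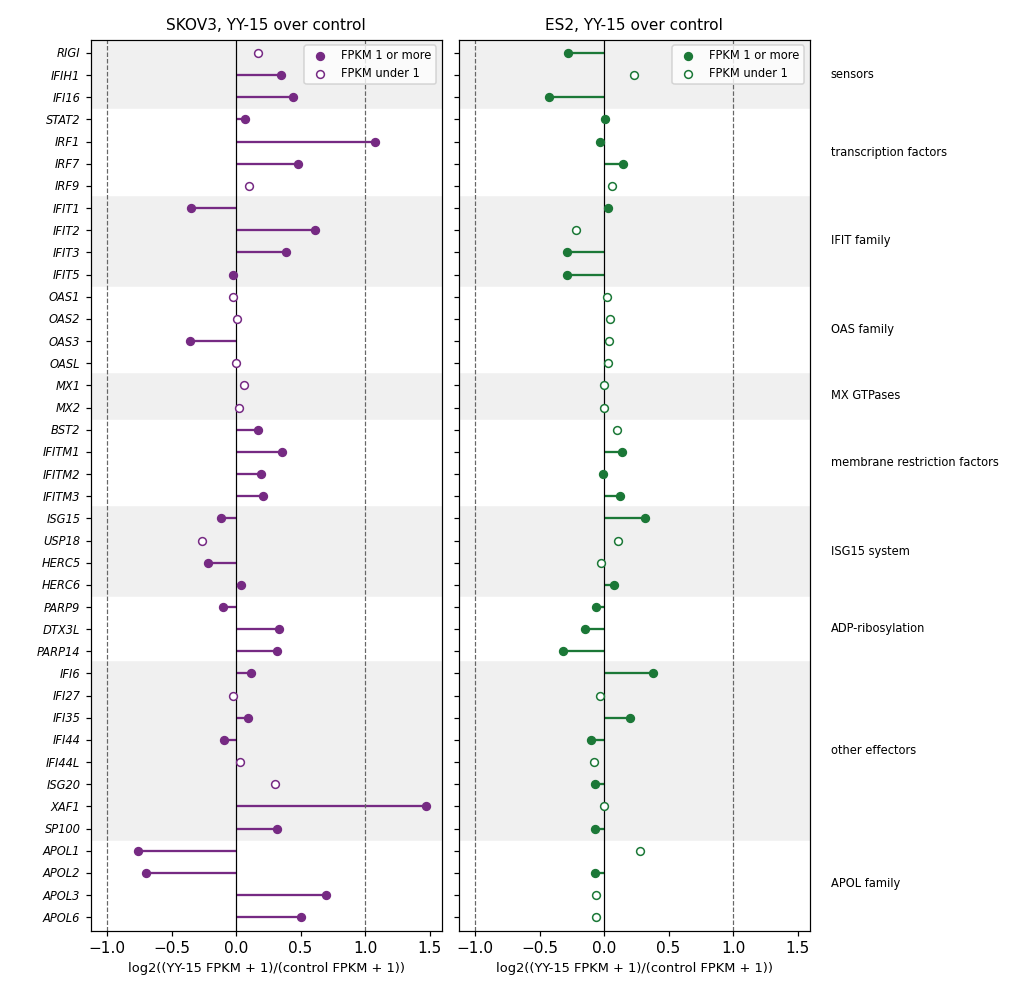
Log2 ratios of YY-15 over control (FPKM + 1) in SKOV3 (left) and ES2 (right) for the 40 genes by role, filled where a library of that line reached 1 FPKM, with dashed lines at 2-fold. IRF1 and XAF1 pass the line in SKOV3, APOL1 and APOL2 are the lowest there, and no gene passes it in ES2.

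Read by promoter, the genes with the response element core as searched here were not the higher ones in SKOV3. The 15 measured genes with a core had ratios from -0.36 to 0.39 with a median of 0.12, and 8 were above 0, against 52.7% of all genes. The 7 measured genes with a window but no core (IRF1, XAF1, IFI16, SP100, IFI35, STAT2 and HERC6) had ratios from 0.04 to 1.47 with a median of 0.32, and all 7 were above 0, where 52.7% of all genes were. XAF1, the highest of them, passed the filter only through the YY-15 library. The 5 measured genes with a gamma-activated site ran from 0.09 to 1.08 with a median of 0.32. These are descriptions of a few genes, and the difference was not tested.

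**Figure D3:**
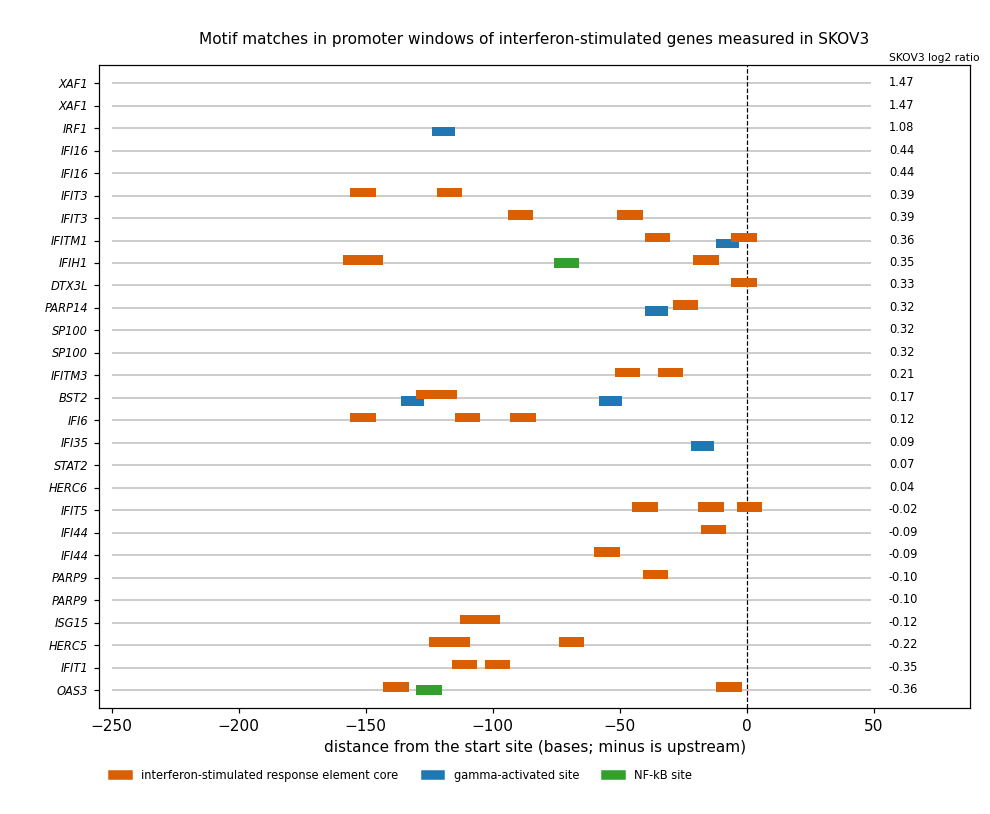
Positions of motif matches (bars) in the promoter windows of genes measured in SKOV3, relative to the start site in bases, ordered by the SKOV3 log2 ratio printed at the right, with a line per window where a gene has several. Response element cores (orange) lie on lines from 0.39 down to -0.36, while XAF1, IRF1 and IFI16 at the top, and SP100, IFI35, STAT2 and HERC6 further down, hold none.

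In ES2, none of the 22 genes that reached 1 FPKM in either library differed by 1.5-fold on the scale with 1 FPKM added. Of these 22, 0 were 2-fold higher or lower, against 0.348% and 0.486% of all 12341 measured genes, and 0 passed 1.5-fold, against 1.0% higher and 2.19% lower. Above 0 were 9 of 22, where 45.7% of all genes were, and the median was -0.04 against -0.02. IFI16 had the lowest ratio, from 60.7 to 44.9 FPKM (-0.43 [-0.46 to -0.40]), and IFI6 the highest, at 3.94 and 5.43 FPKM (0.38 [0.23 to 0.70]). Next among the lower genes were PARP14 (3.41 and 2.53 FPKM, -0.32), IFIT3 (1.5 and 1.04, -0.29), IFIT5 (6.54 and 5.15, -0.29) and RIGI (3.12 and 2.40, -0.28). Among the higher genes were ISG15 (2.46 and 3.30 FPKM, 0.32) and IFI35 (2.43 and 2.93, 0.20). Others of the 22 were close to level, such as IFI44 at 21.1 and 19.6, IFITM2 at 25.4 and 25.3 and SP100 at 6.04 and 5.71 FPKM. IFITM3 was at 10.2 and 11.2 FPKM, IFITM1 at 2.65 and 3.03, and DTX3L at 7.06 and 6.28.

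BST2, HERC5 and OAS3 stayed under 1 FPKM in both ES2 libraries. BST2 was at 0.341 FPKM in the ES2 control and 0.442 with YY-15, HERC5 at 0.410 and 0.388, and OAS3 at 0.360 and 0.397. APOL2 was at 2.31 and 2.15 FPKM, APOL6 at 0.921 and 0.848, and APOL3 at 0.228 and 0.178. IFIT2, higher with YY-15 in SKOV3, was at 0.691 and 0.453 FPKM in ES2, under the filter. APOL1 had 14 estimated counts in the control and 71 with YY-15.

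The small ES2 ratios moved with base composition, whose part in them was not tested. The GC content of the longest transcript ranged from 37.4% (IFIT5) to 66.8% (IRF7) over the 40 genes. Across the 22 measured in ES2, ratio and GC content had a Spearman rho of 0.781, and across 12010 genes with a known GC content it was 0.43. In SKOV3 these were -0.135 over 29 genes and 0.01 over 12924 genes. Genes share a library here and are not independent. The genes lower in ES2 were mostly poor in GC (IFI16 38.6%, IFIT5 37.4%, RIGI 40.5%, PARP14 42.4%) and the higher ones rich (IFI6 56.1%, ISG15 63.4%). With the trend on GC content and length removed, the ES2 ratio was -0.27 for IFI16, -0.21 for PARP14, -0.12 for IFIT5, 0.27 for IFI6 and 0.18 for ISG15, and IFIT3 stayed at -0.29. Of the 22 ratios, 14 came closer to 0 and 6 moved away from it, among them IFITM2 (-0.01 to -0.12), APOL2 (-0.07 to -0.15) and IFIT1 (0.03 to 0.11). In SKOV3 the same step left IRF1 at 1.08, XAF1 at 1.49, APOL1 at -0.73 and APOL2 at -0.66.

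**Figure D4:**
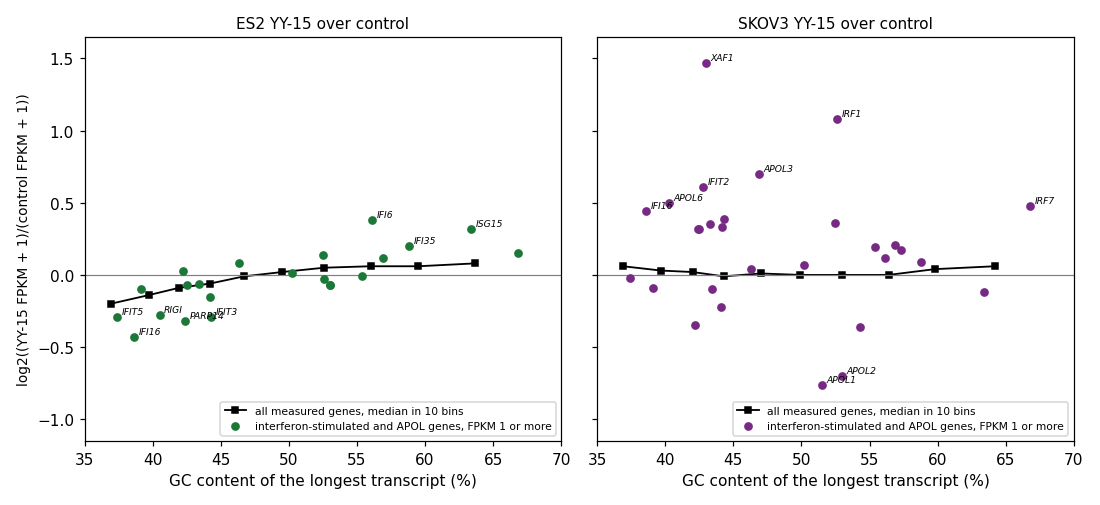
Log2 ratio of YY-15 over control (FPKM + 1) against GC content of the longest transcript in ES2 (left) and SKOV3 (right), with coloured points for the interferon-stimulated and APOL genes at 1 FPKM or more and black squares for the median of all measured genes in 10 bins of GC content. In ES2 the bin medians run from -0.20 to 0.08. The points there also tend to rise with GC content, over a wider range, from -0.43 (IFI16) to 0.38 (IFI6). In SKOV3 the bins stay between -0.01 and 0.06.

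Between the lines, 20 genes were measured in both. Of these, 7 were higher with YY-15 in both, 4 lower in both, 7 higher in SKOV3 and lower in ES2, and 2 the reverse. Over the 11028 genes of the table measured in both lines, these patterns held 22.9%, 24.6%, 28.4% and 24.1%. HERC6, among the 7 higher in both, passed the ES2 filter only through the YY-15 library, so it had to be higher there. Taking the SKOV3 ratio minus the ES2 ratio over 31 genes measured in any library, IRF1 (1.11) and XAF1 were 1 or more higher in SKOV3, against 2.63% of all 14607 genes, and APOL1 1 or more lower, against 1.72%. Above 0 were 21 of 31, against 55.8% of all genes. At 0.5 or more, 8 were higher in SKOV3 and 2 lower, against 13.8% and 9.06%. XAF1, IFIT2 and APOL3, which are among the 8, entered the 31 only through the SKOV3 YY-15 library. Their SKOV3 ratios therefore had to be above 0. APOL1 was under the filter in both ES2 libraries, at 0.0576 and 0.281 FPKM. Its difference joins an ES2 ratio of 0.28 from those values to a SKOV3 ratio of -0.76.

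Genes around the programme were taken from 6 lists of ligands, receptors and kinases, other STAT and IRF factors, negative regulators, sensors and adaptors, and further interferon-stimulated genes. In SKOV3, 1 of their 59 measured genes passed 2-fold upward and 0 downward, close to the 1.66% and 1.31% of all measured genes. It was TNFAIP3, which encodes the NF-kB inhibitor A20, at 5.73 and 13.1 FPKM (1.07 [1.13 to 1.27]). In ES2, 0 of 55 passed in either direction. Above 0 were 41 of 59 in SKOV3, against 52.7% of all genes, and 26 of 55 in ES2, against 45.7%. Among the 41, a gene at 0.971 and 1.63 FPKM passed the filter only through SKOV3 YY-15, so it had to be higher there. IFNE, SAMD9L and GBP1 passed the ES2 filter only through the control, so they had to be lower with YY-15 in that line.

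Of 21 interferon genes sought, 4 were found in the deposited table, and IFNE alone reached 1 FPKM. IFNB1, the interferon beta gene, had 4 estimated counts in SKOV3 YY-15 and 0 in the other libraries, while IFNA1 and IFNW1 were listed at 0 throughout. IFNE, a constitutive epithelial type I interferon of the female reproductive tract, was at 1.07 and 1.12 FPKM in SKOV3. In ES2 it was at 1.43 and 0.663 FPKM from 143 and 70 counts (-0.54 [-1.53 to -0.67]). There it passed the filter only through the control, so its ratio had to be below 0. On the receptor side, IFNGR2, a chain of the interferon gamma receptor, was at 18.7 and 31.4 FPKM in SKOV3 (0.72 [0.70 to 0.82]), IFNGR1 at 19.7 and 26.3 (0.40 [0.37 to 0.48]) and IFNAR1 level at 3.03 and 2.88. JAK1 was level at 37.3 and 36.0 FPKM.

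Among regulators, IRF2, which competes with IRF1 for its sites, was at 2.47 and 4.65 FPKM in SKOV3 (0.70 [0.81 to 1.02]), and its corepressor gene IRF2BP2 at 13.1 and 21.2 (0.65 [0.64 to 0.75]). The further interferon-stimulated genes had a SKOV3 median of 0.19 over 28 measured genes, of which 23 were above 0, against a median of 0.02 and 52.7% above 0 over all genes. The 23 include the gene that passed the filter only through SKOV3 YY-15. Those furthest above 0 after TNFAIP3 were GBP3, a guanylate-binding protein gene, at 2.92 and 5.31 FPKM (0.69), the immunoproteasome subunit gene PSMB9 at 2.00 and 3.76 (0.67) and the peptide transporter gene TAP1 at 9.83 and 15.9 (0.64). The antiviral genes ZC3HAV1 (6.24 and 3.49 FPKM, -0.69) and SAMD9 (6.01 and 3.83, -0.54) were lower. In ES2 the same list had a median of -0.03 over 25 measured genes, of which 11 were above 0, against -0.02 and 45.7% over all genes. SAMD9L and GBP1, among these 25, passed the filter only through the ES2 control, so they had to be below 0.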

How the data were processed

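Poly(A)-selected RNA was sequenced from both ends, per the labels' protocols. The authors deposited FPKM and estimated counts per gene, per the file headers. The counts hold only whole numbers and are called estimated, because some of 1 stand beside an FPKM close to 0. StringTie 2.1.6, HISAT2 2.2.1, cutadapt 1.9, edgeR and DESeq2 are named, without their roles, in the submitters' processing notes. They also name a mouse build, mm10, whereas the identifiers are human, and all 40 genes overlap the same gene in GENCODE 29 (GRCh38).

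All 8 value columns were matched to libraries by line and by control or dose. Ratios used a pseudocount of 1 FPKM and a filter of 1 FPKM, with sizes of 2-fold and, between untreated lines, 4-fold. Neither DESeq2 nor edgeR was run here: with 1 library per group there is no test. Exact Clopper-Pearson intervals (95%) came from estimated counts and cover counting error only, while PCR copies are not separate molecules. The calculation was tested on simulated counts. The members, lists and motifs were chosen with earlier results of these data known. A gene was given with its values in every library where it reached 5 FPKM or a ratio of 0.5 in size. Transcript GC content came from GENCODE 29, and its trend was removed by local regression with a span of 0.3. Alternatives were other pseudocounts, filters, scalings and sizes. Python 3.11.15, numpy 2.4.6, pandas 2.3.3, scipy 1.17.1, statsmodels 0.14.6 and Biopython 1.88 were used. Of the genes in the lists around the programme, 1 is not reported here by name.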

Additional observations from a re-analysis of the deposited data

Results flagged for a closer look

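For 5 genes measured in both lines, the SKOV3 library with YY-15 was higher than its control and the ES2 library lower, with both counting intervals clear of 0. The same signs held for 7 of the 20 listed genes measured in both lines, and for 28.4% of all 11028 such genes. How many of all genes also had both intervals clear of 0 was not counted, so these 5 cannot be set apart from other genes. The intervals cover counting error only and can exclude 0 at a small ratio, as for SP100 in ES2 (-0.07 [-0.13 to -0.03]). With 1 library per group the difference between the lines was not tested. The SKOV3 ratio minus the ES2 ratio was 0.86 for IFI16 (0.44 and -0.43), 0.68 for IFIT3 (0.39 and -0.29), 0.64 for PARP14 (0.32 and -0.32), 0.48 for DTX3L (0.33 and -0.15) and 0.39 for SP100 (0.32 and -0.07). The transcripts of these genes have a GC content between 38.6% and 44.3%. With the trend on GC content and length removed, the ES2 ratios were -0.27 for IFI16, -0.29 for IFIT3, -0.21 for PARP14, -0.09 for DTX3L and 0.00 for SP100.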

How the results depend on the processing

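The median ratios of the measured genes, 0.19 in SKOV3 and -0.04 in ES2, stayed between 0.09 and 0.26 and between -0.09 and -0.00 under every alternative run. In ES2, 0 genes passed 2-fold under any of them, and 0 passed 1.5-fold or 3-fold at the reported settings. The 2 genes at least 2-fold higher in SKOV3 became 4 with a pseudocount of 0.1, 0 with a pseudocount of 5, 1 with a filter of 5 FPKM, 4 after rescaling to a sum of 1000000 (TPM) and 5 in CPM, and were 4 at 1.5-fold and 0 at 3-fold. At 1.5-fold, 2 were lower. The 3 genes whose ratios were 1 or more apart between the lines became 7 with a pseudocount of 0.1, 0 with a pseudocount of 5, 7 in TPM, 7 in CPM, and 1 with the GC and length trend removed, which needs 1 FPKM in both lines. Between the untreated lines, the 5 genes 4-fold higher in SKOV3 became 3 with a pseudocount of 5 and 8 in TPM or CPM, and the 2 higher in ES2 became 4, 1 and 4 with pseudocounts of 0.1 and 5 and in CPM. A pseudocount weighs most on genes of low FPKM, and it weighs less after rescaling, which raises all values. Of single genes, 0 past 2-fold changed sign, and the 5 that did had ratios of at most 0.06 in size. No paired analysis was possible because each group held 1 library.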
